A study of Mus musculus with 8 samples.

Results

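The corticotropin-releasing hormone (CRH) system was examined in the hippocampus through 5 genes: the ligand genes Crh and Ucn, the receptor genes Crhr1 and Crhr2, and the binding protein gene Crhbp. They were chosen by symbol from the 29442 genes of the count table, and all 5 were found there. CRH is the peptide with which the hypothalamus drives the pituitary-adrenal stress axis, and it is also made by interneurons within the hippocampus. CRH and the urocortins signal through receptors of the class B1 family that raise cyclic AMP, and the secreted binding protein holds CRH away from its receptors. Urocortin binds both receptors, while CRH itself prefers CRHR1.

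The RNA came from 8 female C57BL/6 J mice aged 6 to 8 weeks. Of these, 4 were injected subcutaneously with dehydroepiandrosterone (DHEA, an adrenal androgen precursor) at 30 mg/kg/day for 21 days, and 4 received sesame oil, the vehicle, for the same 21 days. Per the study's methods, the tissue was ventral hippocampus, and mice of both groups had gone through open field, forced swim and tail suspension tests before it was taken, so both groups shared this exposure. The total count per library was 35748416 to 38038361 for the DHEA label and 31483772 to 35418297 for the sesame oil label. Groups are named by their deposited labels throughout, since the direction of change in the study's own gene table is the reverse of that given by the labels, and this was not resolved. The series text speaks of 6 tissues, and replicate 4 of each label carries a later accession than the other 6 samples; whether these 2 were processed apart is not given in the sources used here.

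The label hippocampus was checked against marker genes. Slc17a7, the vesicular glutamate transporter of excitatory neurons, ran from 933 to 1082 counts per 1000000 (CPM, after TMM normalization) over the 8 libraries. All 11 pyramidal and granule neuron markers were detected, as were all 4 markers each of the ventral and the dorsal hippocampus. The 6 neocortex markers (174 to 286 CPM in sum) and the 5 thalamus markers were detected too, so detection alone does not single out the hippocampus. The dorsal markers included Wfs1 at 76.3 to 123 CPM, and the ventral ones Nr2f2 at 29.4 to 48.6 CPM. A pair of libraries stood apart from the rest. On the first principal component, which held 33.4% of the variance over 16813 genes, DHEA library 1 lay at 21.8 and DHEA library 2 at 35.6, while the other 6 libraries lay between -12.7 and -3.62. Technical measures also differed between the labels: mitochondrially encoded genes took 7.29 to 9.34% of the counts in the DHEA libraries and 6.37 to 7.23% in the sesame oil libraries. Each library's correlation with gene GC content was -0.113 to -0.00445 for the DHEA label and 0.0558 to 0.136 for the sesame oil label.

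No gene of the CRH system passed the test between the groups. Crhr2 was 1.40-fold higher in the libraries labelled DHEA (95% interval 0.977 to 2.02), whereas Crhr1 (0.776-fold, 0.565 to 1.07), Crh (0.879-fold, 0.564 to 1.37) and Crhbp (0.887-fold, 0.751 to 1.05) had estimates below 1. Crhbp was the most abundant of the genes, and Ucn was at the limit of detection. With edgeR's quasi-likelihood test, 0 of 5 genes had an adjusted p under 0.05, beside 0 of 27612 genes tested (0%), and 0 of 5 had an unadjusted p under 0.05, beside 9.31% of all genes tested. With DESeq2 in its place, 153 genes had an adjusted p under 0.05. Crhr1, Crhr2 and Crhbp were not among them, and Crh and Ucn were given no adjusted p. The 2 groups overlapped for each of the 5 genes, while they did not overlap for 5.04% of all genes. In the reported test, the intervals of Crh, Crhr1 and Crhbp lay inside a 2-fold difference in either direction, and that of Crhr2 reached just past it. With robust moderation of the variances, the SE of Crhr1 was 0.321 rather than 0.218 (unadjusted p = 0.295 in edgeR's quasi-likelihood test). No interval was computed for that setting, so a 2-fold difference in Crhr1 is not excluded. When trends with GC content were removed within each library, this left log2 fold changes of -0.18 for Crh, -0.33 for Crhr1, 0.51 for Crhr2 and -0.18 for Crhbp, with the same signs. Without replicate 4 of each label, Crhr2 was 0.19 (unadjusted p = 0.482) and Crhr1 -0.56 (unadjusted p = 0.0287, adjusted p = 0.407 in edgeR's quasi-likelihood test), and with the later accessions as a term in the model the 4 values were -0.19, -0.39, 0.48 and -0.17, in the same order of genes.

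**Figure D1:**
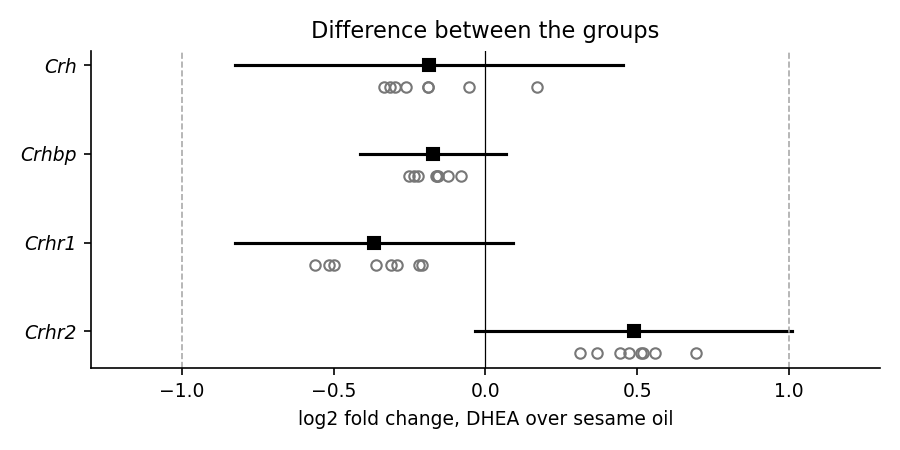
Log2 fold change of DHEA over sesame oil for 4 genes of the CRH system (squares, from edgeR) with 95% intervals (lines), 4 libraries per group. Open circles show the 8 estimates with 1 library left out in turn, and dashed lines mark a 2-fold difference; every interval spans 0, and only Crh has an open circle on the other side of 0.

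The ligand Crh was counted 42 to 97 times per library. In the libraries labelled DHEA its level was 1.62, 1.60, 2.08 and 1.15 CPM (replicates 1 to 4, 1.61 ± 0.38, SD, n = 4). In the sesame oil libraries it was 1.54, 1.40, 3.08 and 1.33 CPM (1.84 ± 0.831, SD, n = 4). Sesame oil library 3 was thus the highest of all, and the other 7 libraries lay together with no separation of the groups. The log2 fold change was -0.19 (SE 0.305), with an adjusted p of 0.845 in edgeR's quasi-likelihood test and p = 0.8 in a two-sided exact permutation test. Without sesame oil library 3 the estimate became 0.17, so its sign rested on that library. The same library had the highest summed level of 6 neocortex markers, 286 CPM against 174 to 220.3 CPM in the others, with Tbr1, a transcription factor of deep cortical neurons, as the most abundant of the list. Over the 8 libraries, Crh and the mean log2 level of these markers had r = 0.76 (exact permutation p = 0.0527, adjusted over 40 relations 0.357) and rho = 0.333 (exact permutation p = 0.428, adjusted 0.949). Without sesame oil libraries 2 and 3 r was 0.00431, so the relation rested on those libraries.

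Crh and Ucn are paralogs, and the stretch in which their coding sequences align is shown here because it bears on whether reads of one ligand gene could be assigned to the other. Local alignment of the transcripts of the GENCODE vM21 annotation paired bases 457 to 480 of the 564 coding bases of Crh with bases 262 to 285 of the 369 coding bases of Ucn. Capitals mark identical bases.
Crh: GAtCTCACCTTCCACCTtCTGCGG
Ucn: GAcCTCACCTTCCACCTgCTGCGG
These 24 bases had 22 identities (91.7%), and the longest run that the transcripts shared was 14 bases. The receptor genes aligned over 1120 columns with 74.4% identity, and their longest shared run was 24 bases. Crh overlaps Gm42189 and Crhr1 overlaps Gm35469 in the RefSeq annotation. The strand setting of the counting and its handling of reads in overlaps are not given in the sources used here. For these pairs, reads of the partner gene may be included or reads in the overlap may be lost. Ucn, Crhr2 and Crhbp overlap no other gene there.

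Ucn, which encodes urocortin, had 0 counts in all 4 libraries labelled DHEA, which allows up to 3 counts per library or 0.0808 to 0.0841 CPM. In the sesame oil libraries it had 1 count in replicates 1 and 3 and 0 in replicates 2 and 4. The other urocortin genes were equally sparse: Ucn2 had 1 count over all 8 libraries, and Ucn3 had 2. These limits cover counting error only, and no fold change is given for the 3 genes. Of the peptides that act on the receptors, Crh was therefore the only one detected above the limit in every library.

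**Figure D2:**
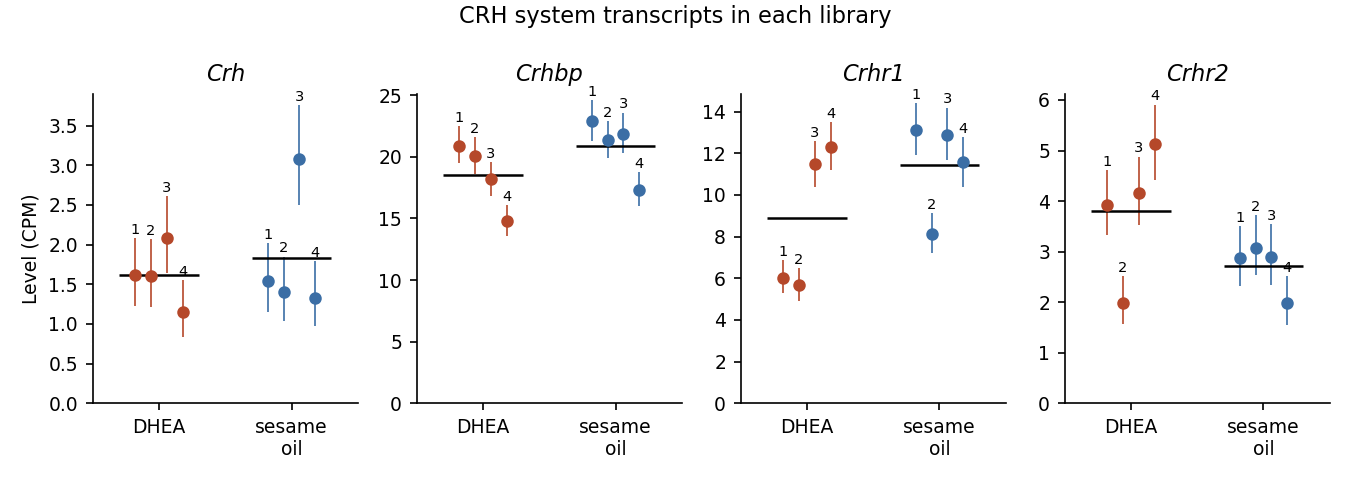
Level (CPM) of Crh, Crhbp, Crhr1 and Crhr2 in each library, with the replicate number above each point. Vertical bars are 95% Poisson intervals of the counts, which cover counting error only, and horizontal lines are group means (n = 4 per group); the groups overlap in all 4 panels, DHEA libraries 1 and 2 are the lowest for Crhr1, and sesame oil library 3 is the highest for Crh.

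Crhr1, the main receptor for CRH in the forebrain, was counted 202 to 448 times per library. Its level in the libraries labelled DHEA was 6.03, 5.67, 11.5 and 12.3 CPM (8.86 ± 3.5, SD, n = 4). In the sesame oil libraries it was 13.1, 8.13, 12.9 and 11.6 CPM (11.4 ± 2.30, SD, n = 4). DHEA libraries 1 and 2 were the lowest of all, whereas DHEA libraries 3 and 4 lay within the range of the sesame oil group. The log2 fold change was -0.37 (SE 0.218), with an adjusted p of 0.615 in edgeR's quasi-likelihood test and p = 0.2 in a two-sided exact permutation test. By the same edgeR test, the estimate was -0.563 without DHEA library 4 (unadjusted p = 0.0174, adjusted p = 0.295). It was -0.515 without DHEA library 3 (unadjusted p = 0.0304) and -0.499 without sesame oil library 2 (unadjusted p = 0.0366). Without DHEA library 2 it was -0.209 (unadjusted p = 0.298). DHEA libraries 1 and 2 are those set apart on the first principal component. Without both of them, an omission chosen after the data were seen, the estimate was 0.05, with the sign turned. The part of that separation in the Crhr1 level was not tested.

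Crhr2, the receptor of urocortin 2 and urocortin 3, was counted 67 to 187 times per library. Its level in the libraries labelled DHEA was 3.93, 1.99, 4.16 and 5.12 CPM (3.80 ± 1.31, SD, n = 4). In the sesame oil libraries it was 2.87, 3.08, 2.89 and 1.99 CPM (2.71 ± 0.49, SD, n = 4). DHEA libraries 1, 3 and 4 exceeded every sesame oil library, and DHEA library 2 and sesame oil library 4, the lowest of their groups, were both at 1.99 CPM after rounding. The log2 fold change was 0.49 (SE 0.249), with an adjusted p of 0.559 and an unadjusted p of 0.065 in edgeR's quasi-likelihood test, and p = 0.171 in a two-sided exact permutation test. Without DHEA library 2 it was 0.69, with an unadjusted p of 0.00348 and an adjusted p of 0.379, and without DHEA library 4 it was 0.31, with an unadjusted p of 0.238 and an adjusted p of 0.675.

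Markers of the choroid plexus, the epithelium that secretes cerebrospinal fluid and borders the hippocampus, varied widely between the libraries. Summed over 8 genes, their level was 4551, 96.4, 2248 and 4216 CPM in DHEA libraries 1 to 4 and 3173, 2072, 2304 and 521 CPM in sesame oil libraries 1 to 4. Ttr, the transthyretin gene, made up 88% of this sum, all 8 genes were detected, and 0 of them had an unadjusted p under 0.05 between the groups. All 8 had a positive log2 fold change, the sign of that of Crhr2, with a median of 0.45, while the mean log2 level of the list was lower by 0.07 in the DHEA group (5.18 against 5.25). DHEA library 2 and sesame oil library 4, the lowest for these markers, were also the lowest for Crhr2. Across the 8 libraries, Crhr2 and the mean log2 level of the markers had a Pearson r of 0.819 (exact permutation p = 0.00776, adjusted over 40 relations 0.311) and a Spearman rho of 0.714 (exact permutation p = 0.0576, adjusted 0.554). Leaving out these 2 libraries, the farthest from the median, gave r = 0.599, so the size of r rested in part on them, and r within the groups was 0.948. The Crhr2 difference was 0.57 (SE 0.214) without them, with an unadjusted p of 0.0148 and an adjusted p of 0.564 in edgeR's quasi-likelihood test, an omission chosen after the data were seen. Fewer cells of a type and less RNA per cell cannot be told apart in bulk tissue, and the part of the choroid plexus in the Crhr2 level was not tested.

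**Figure D3:**
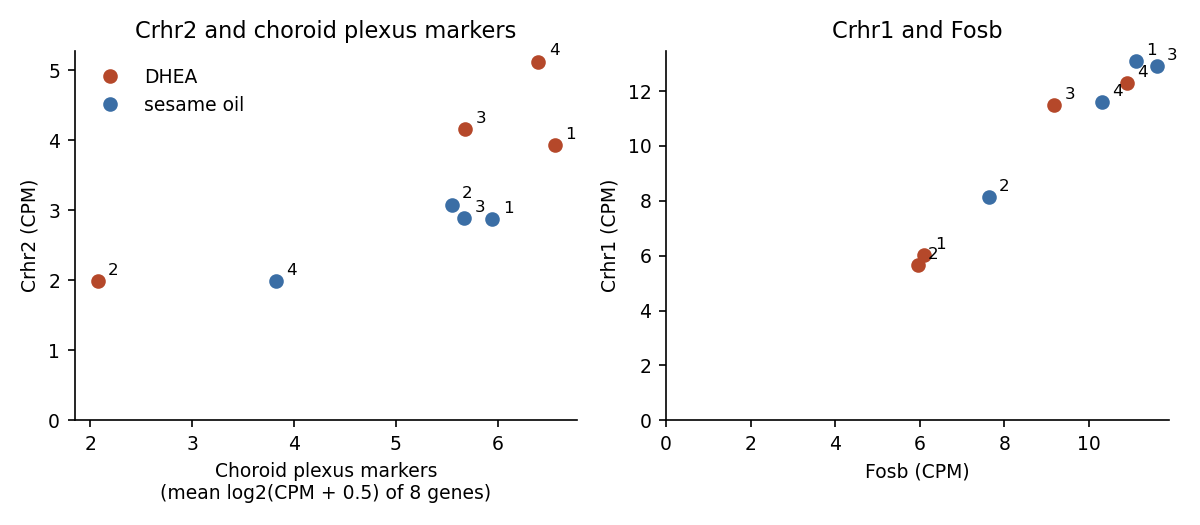
Left, Crhr2 (CPM) against the mean log2(CPM + 0.5) of 8 choroid plexus markers; right, Crhr1 (CPM) against Fosb (CPM); 1 point per library, numbered by replicate. DHEA library 2 and sesame oil library 4 are lowest on both axes of the left panel, and DHEA libraries 1 and 2 on both axes of the right panel. Fosb was picked for its likeness to Crhr1 over these same libraries, so the right panel only describes that choice.

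The receptors were also set side by side within each library as a ratio of FPKM, a level per transcript length and library size. The Crhr1 to Crhr2 ratio was 0.59, 1.09, 1.06 and 0.917 in the libraries labelled DHEA and 1.74, 1.01, 1.70 and 2.21 in those labelled sesame oil. Sesame oil library 2 lay among the DHEA libraries, and the other 3 lay above all of them. On the log2 scale the ratio was -0.17 ± 0.407 (SD, n = 4) against 0.68 ± 0.477 (SD, n = 4), a difference of -0.85 with p = 0.0857 in a two-sided exact permutation test, whose smallest possible p is 0.0286.

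Because the receptor genes had the largest estimates of the 4 detected genes, and in opposite directions, their start regions were compared. The RefSeq windows of GRCm38.p6, from 250 bases before to 50 bases after the start, are shown with motif matches in capitals. A motif could match on either strand.
Crhr1 (chr11:104132531-104132830, + strand): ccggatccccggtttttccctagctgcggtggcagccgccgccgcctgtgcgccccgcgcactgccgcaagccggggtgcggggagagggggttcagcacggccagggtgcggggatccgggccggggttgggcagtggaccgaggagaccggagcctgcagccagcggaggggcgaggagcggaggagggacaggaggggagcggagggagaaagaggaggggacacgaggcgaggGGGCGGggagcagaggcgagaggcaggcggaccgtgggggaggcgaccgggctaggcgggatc
Crhr2 (chr6:55132967-55133266, - strand): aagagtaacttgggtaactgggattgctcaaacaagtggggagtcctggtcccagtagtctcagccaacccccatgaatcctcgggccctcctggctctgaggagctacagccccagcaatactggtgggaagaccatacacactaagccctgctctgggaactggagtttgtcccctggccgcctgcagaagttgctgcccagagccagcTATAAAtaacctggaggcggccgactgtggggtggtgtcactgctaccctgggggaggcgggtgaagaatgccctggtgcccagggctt
The Crhr1 window was 75% G and C and the Crhr2 window 59%, beside a median of 52.7% over 32851 promoters. Crhr1 held the GC box letters GGGCGG (in 35.7% of all promoters) and Crhr2 the TATA letters TATAAA (in 13.6%), which the Crhbp window also held. The Ucn window held the cyclic AMP response element letters TGACGTCA (in 1.79%) and the steroid receptor half-site letters AGAACA (in 19%). A match describes the window only.

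Crhbp was the most abundant and the least variable of the 4 detected genes, with 542 to 778 counts per library and a highest level 1.54 times the lowest. Its level in the libraries labelled DHEA was 20.9, 20.1, 18.2 and 14.8 CPM (18.5 ± 2.71, SD, n = 4). In the sesame oil libraries it was 22.9, 21.4, 21.9 and 17.3 CPM (20.9 ± 2.43, SD, n = 4). Replicate 4 of either label was the lowest of its group, and DHEA libraries 1 to 3 lay between the lowest and the next of the sesame oil libraries. The log2 fold change was -0.17 (SE 0.115), with an adjusted p of 0.645 in edgeR's quasi-likelihood test and p = 0.229 in a two-sided exact permutation test. Without DHEA library 4 it was -0.08, with an unadjusted p of 0.467, and without DHEA libraries 1 and 2, an omission chosen after the data were seen, it was -0.35, with an unadjusted p of 0.0151 and an adjusted p of 0.523.

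Per length, the order of the mean levels over all 8 libraries was Crhbp, Crh, Crhr1, Crhr2 and Ucn, and that of the middle 3 genes changed with the group. Mean FPKM over the 8 libraries was 11.7 ± 1.57 for Crhbp (SD, range 8.91 to 13.8), which ranked 4602 among the 29442 genes. It was 1.31 ± 0.463 for Crh (rank 11874), 1.26 ± 0.392 for Crhr1 (rank 11968) and 1.05 ± 0.354 for Crhr2 (rank 12391). In the libraries labelled DHEA the means were 1.22 for Crhr2, 1.21 for Crh and 1.09 for Crhr1, and in those labelled sesame oil 1.42 for Crhr1, 1.40 for Crh and 0.881 for Crhr2. Crh, Crhr1 and Crhr2 therefore did not differ beyond their spread, while the lowest Crhbp value was above the highest value of each. The Crh to Crhbp ratio of FPKM was 0.0982, 0.101, 0.146 and 0.0987 in the libraries labelled DHEA and 0.0857, 0.0836, 0.179 and 0.098 in those labelled sesame oil. Replicate 3 of either label had the highest ratio of its group. The log2 ratio was -3.19 ± 0.277 against -3.24 ± 0.516 (SD, n = 4 each), a difference of 0.05 with p = 0.914 in a two-sided exact permutation test. The sign of this difference turned when DHEA library 3 (-0.0911), sesame oil library 1 (-0.0548) or sesame oil library 2 (-0.0668) was left out, and it was 0.30 without sesame oil library 3.

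**Figure D4:**
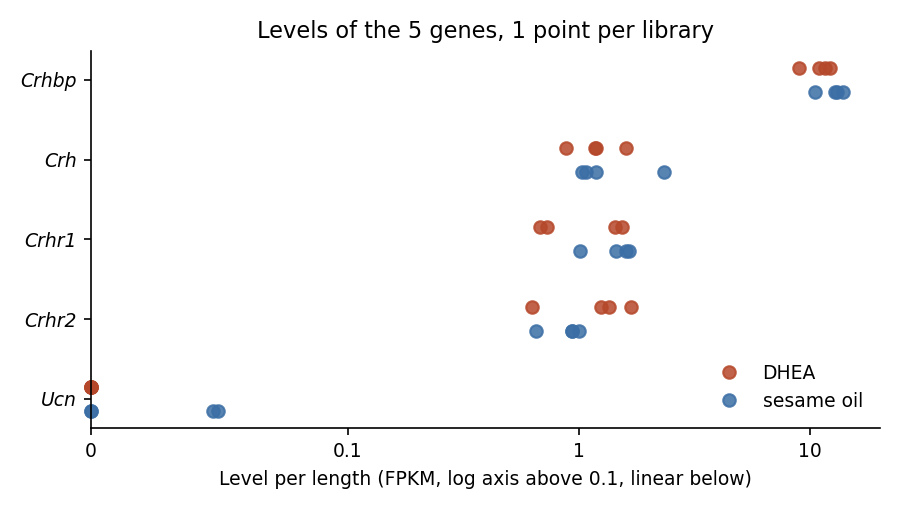
FPKM of the 5 genes, 1 point per library, on an axis that is logarithmic above 0.1 and linear below. Crhbp lies between 8.91 and 13.8 FPKM, apart from Crh, Crhr1 and Crhr2, which overlap one another, and Ucn is at 0 in 6 of 8 libraries.

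The genes whose level over the 8 libraries was most like that of each member were sought among the 12777 genes whose mean count reached 100, as a description of libraries that share their depth and composition. For Crhr1 they were Atf7 (Pearson r = 0.991), Fosb (r = 0.988) and Cep126 (r = 0.979). Fosb, an activity-induced transcription factor gene, was at 6.11, 5.95, 9.18 and 10.9 CPM in the libraries labelled DHEA and 11.1, 7.63, 11.6 and 10.3 CPM in those labelled sesame oil. Its lowest libraries were DHEA 1 and 2, as for Crhr1. For Crhr2 the most alike were Fam189a2 (r = 0.973), Cfap206, a cilium gene (r = 0.964), and Tnpo1, a nuclear import receptor gene (r = 0.958). Cfap206 was at 4.98, 2.89, 4.94 and 5.47 CPM and at 4.01, 3.42, 3.65 and 2.58 CPM, with the same lowest libraries as the choroid plexus markers. For Crh they were Prkar1b, a regulatory subunit gene of protein kinase A (r = 0.951), 6430548M08Rik (r = 0.934) and Otud1, a deubiquitinase gene (r = 0.932). For Crhbp they were Mmp17, a matrix metalloproteinase gene (r = 0.982), Gpatch11 (r = 0.964) and Erc1, an active zone gene (r = 0.961). None of these 12 genes had an unadjusted p under 0.05 between the groups by edgeR, beside 9.31% of all genes tested. The 12 genes were chosen for likeness to the members over these same libraries. Their shared lowest libraries and lack of a group difference follow largely from that choice, and nothing is read from them.

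The genes that make, receive and limit CRH signals were then counted, beside a median log2 fold change of 0.01 and a share of 9.31% with an unadjusted p under 0.05 over all genes tested. Of 10 genes of peptide processing and the secretory granule (median -0.03), only Chgb, a granule protein gene, had an unadjusted p under 0.05. It was lower in the libraries labelled DHEA, 530.1 to 595 CPM against 619.9 to 653 CPM (log2 fold change -0.16, SE 0.059, adjusted p = 0.4 in edgeR's quasi-likelihood test). Of 31 genes of receptor signalling (median 0.02), 1 was higher and 2 were lower at that threshold. The higher one was Rapgef4, which encodes the cyclic AMP sensor EPAC2 (0.21, SE 0.0779), and the lower ones were the adenylyl cyclase genes Adcy3 (-0.16, SE 0.0756) and Adcy6 (-0.32, SE 0.112). Of 6 genes that desensitise receptors (median 0.00), 3 had negative values, and only Arrb2, a beta-arrestin gene, had an unadjusted p under 0.05, at 32.5 to 37.2 CPM against 42 to 44 CPM (log2 fold change -0.28, SE 0.0715, unadjusted p = 0.000929, adjusted p = 0.245 in edgeR's quasi-likelihood test). The groups did not overlap for these 2 genes, Chgb and Arrb2, of the 10, 31 and 6 in the 3 lists, a share near the 5.04% of all genes, and nothing is read from it.

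Among 13 other class B1 receptor genes (median 0.07), 2 had an unadjusted p under 0.05 and higher levels in the libraries labelled DHEA. They were Calcrl, a receptor gene for CGRP and adrenomedullin (0.37, SE 0.135, adjusted p = 0.389 in edgeR's quasi-likelihood test), and Calcr, the calcitonin receptor gene, which was close to the detection limit at 0.0808 to 0.388 CPM against 0.0317 to 0.119 CPM. Of 6 genes of corticosteroid receptors and regulators of Crh (median 0.14), only Hsd11b1, which regenerates active corticosteroid, passed the unadjusted threshold (0.21, SE 0.0953, adjusted p = 0.531 in edgeR's quasi-likelihood test). The glucocorticoid receptor gene Nr3c1 had a log2 fold change of 0.14 (SE 0.072), the mineralocorticoid receptor gene Nr3c2 of 0.11 (SE 0.0967) and Fkbp5, a corticosteroid-induced gene, of 0.14 (SE 0.0923), each with an unadjusted p above 0.05. The list held 5 positive values and 1 negative one, that of Nr4a1, an activity-induced nuclear receptor gene, which was the largest in size (-0.33, SE 0.229, unadjusted p = 0.171 in edgeR's quasi-likelihood test). No gene of any of these lists kept an adjusted p under 0.05 by edgeR.

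**Figure D5:**
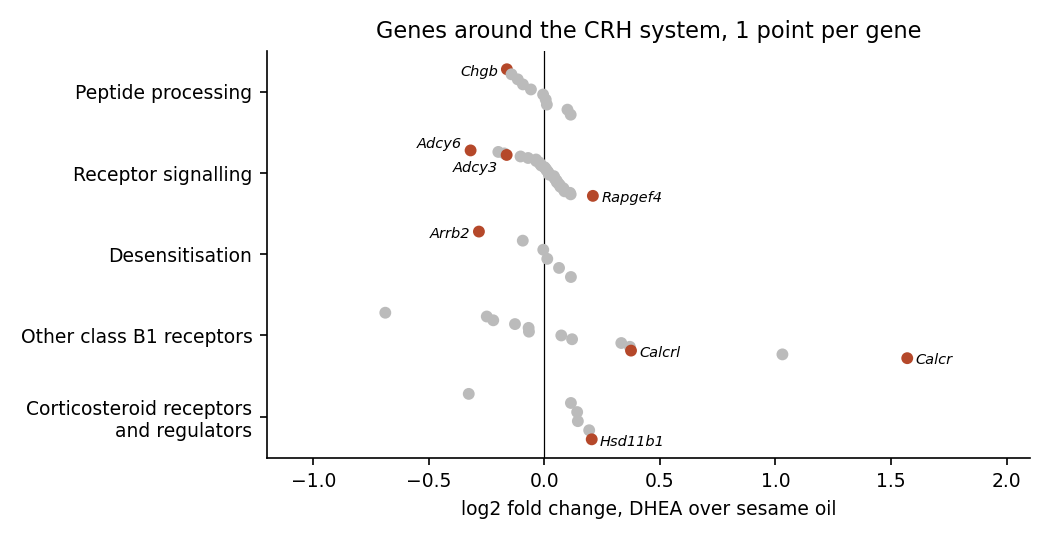
Log2 fold change of DHEA over sesame oil for the genes of 5 lists around the CRH system, 1 point per gene. Coloured and named points (8 genes) are those whose unadjusted edgeR p was under 0.05, grey points are the rest, and no gene had an adjusted p under 0.05.

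Markers of the cells and neighbouring tissues that the sample could hold were measured beside the CRH genes, and their counts are again to be read beside the 9.31% of all genes with an unadjusted p under 0.05. Of 11 inhibitory interneuron markers, the cells that make Crh in the hippocampus, 0 had an unadjusted p under 0.05, and their summed level ran from 809 to 932 CPM with Gad1 as the most abundant. Over the libraries, Crh and the mean log2 level of these markers had a Pearson r of 0.739 (exact permutation p = 0.0293, adjusted over the 40 relations 0.357), a Spearman rho of 0.762 (exact permutation p = 0.0368, adjusted 0.49), and r = 0.636 without sesame oil libraries 2 and 3, the farthest from the median. Crhr1 ran against the pyramidal and granule neuron markers (r = -0.743, exact permutation p = 0.0363, adjusted 0.357; rho = -0.69, exact permutation p = 0.0694, adjusted 0.554) and against the dorsal markers (r = -0.743, exact permutation p = 0.0403, adjusted 0.357; rho = -0.667, exact permutation p = 0.0831, adjusted 0.554). Without the farthest 2 libraries these r values were -0.885 and -0.822. With the Crhr2 and choroid plexus pair, these were the 4 of 40 relations with an unadjusted p of r under 0.05, and none stayed under it after adjustment. By rho, Crhbp with the ventral markers (rho = 0.786, exact permutation p = 0.0279, adjusted 0.49; r = 0.529, exact permutation p = 0.178, adjusted 0.793; r = 0.734 without the farthest 2) and Crh with the hypothalamus markers (rho = -0.762, exact permutation p = 0.0368, adjusted 0.49; r = -0.679, exact permutation p = 0.0546, adjusted 0.357; r = -0.701 without the farthest 2) were also under 0.05 before adjustment. Of 7 hypothalamus markers, 0 passed, and they summed to 1.08 to 3.23 CPM, with Pmch as the most abundant. Of 8 anterior pituitary markers, the hormone genes Prl, Gh and Pomc had an unadjusted p under 0.05, each with the lower mean in the DHEA group. In the study's qRT-PCR of further hippocampal samples, Pomc was higher after DHEA, the reverse of the direction by the labels here. Prl (0 to 0.219 CPM against 0.543 to 16.6 CPM, adjusted p = 0.0647 in edgeR's quasi-likelihood test) and Gh (0 to 0.0821 CPM against 0.151 to 6.95 CPM, adjusted p = 0.0818) did not overlap between the groups, beside 5.04% of all genes tested. Pomc did overlap (exact permutation p = 0.286), and Fshb was at 0 counts in every library. The sum of these markers was 30.3 CPM in sesame oil library 2 and 1.85 to 6.91 CPM in the others. Prl was the most abundant over all libraries together. In the DHEA libraries its mean was 0.0823 CPM, below that of Pomc at 0.937 CPM. Crh was at 1.40 CPM in sesame oil library 2, inside the range of the other libraries. None of 6 vascular smooth muscle markers, a cell type known to hold Crhr2, and none of 5 thalamus markers had an unadjusted p under 0.05. Acta2 and Plekhg1 were the most abundant of these lists. Of 6 neocortex markers, Fezf2 was lower in the libraries labelled DHEA (-0.39, SE 0.102, adjusted p = 0.245 in edgeR's quasi-likelihood test). Of the 11 pyramidal and granule neuron markers 4 had a positive and 7 a negative log2 fold change, and of the 4 dorsal markers 1 a positive and 3 a negative one. Spink8, which is on both lists, was the only one with an unadjusted p under 0.05 (0.32, SE 0.133, adjusted p = 0.469 in edgeR's quasi-likelihood test), and 0 of 4 ventral hippocampus markers had an unadjusted p under 0.05.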

How the data were processed

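Per the labels, the authors processed the reads with fastp, HISAT2 and HTSeq on GRCm39, and versions are not given in the sources used here. They deposited raw counts per gene, and FPKM values made from these counts. The members and gene lists were chosen with earlier results of these data known. TMM normalization and the quasi-likelihood test of edgeR 4.0.16 (R 4.3.3) with Benjamini-Hochberg adjustment were run without a further filter where a gene had any count (27612 of 29442 genes; minimum 1), at prior count 0.125. No row lacked a gene name. With 31483772 to 38038361 counts per library, 3 counts (the limit that 0 counts allow) were at most 0.0952 CPM. Single values were compared by two-sided exact permutation tests over 70 allocations, and correlations over 40320 pairings. The Crhr1 to Crhr2 ratio used FPKM with 0.01 added, and the Crh to Crhbp ratio used FPKM with nothing added. Labels do not say whether samples were pooled, while the study's methods give n = 4 per group and describe tissue taken from each mouse. The p-values measure the spread between samples. No pair of libraries within a group agreed within sampling noise, and pairs between groups were not compared. Named genes were the members, list genes with an unadjusted p under 0.05, or otherwise each list's most abundant genes, Ucn2, Ucn3, Nr3c1, Nr3c2 and Fkbp5, and the 3 genes most like each member. Nr4a1 was added after its values were seen. Alternatives were DESeq2 1.42.0, limma 3.58.1 on log2(FPKM + 1) and log2(FPKM + 0.1), other filters and scalings, and leaving out libraries. Omission of 2 libraries at once, a term for the later accessions and removal of GC trends were added after the data were seen. Promoter windows and gene overlaps came from RefSeq (GRCm38.p6) and were not joined to the counts by position. The Crh window was not used here. The test scripts were tested on simulated data.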

Additional observations from a re-analysis of the deposited data

Results flagged for a closer look

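The following 3 values stood apart within a group of 4 libraries by Dixon's ratio, which sets the gap between an extreme library and its neighbour against the group's whole range, at the 95% level. With 32 groups examined, 1.6 are expected by chance (1 in 20). Crh was 3.08 CPM in sesame oil library 3 against 1.33 to 1.54 CPM in the other sesame oil libraries (ratio 0.882). The log2 Crh to Crhbp ratio was -2.78 in DHEA library 3 against -3.35 to -3.30 in the rest of the DHEA group (ratio 0.92). The mean log2 level of 6 vascular smooth muscle markers was 2.32 in sesame oil library 2 against 3.19 to 3.36 in the other sesame oil libraries (ratio 0.842), where Crhr2 was 3.08 CPM against 1.99 to 2.89 CPM.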

How the results depend on the processing

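After Benjamini-Hochberg adjustment edgeR left 0 genes under 0.05, where 2571 had an unadjusted p under 0.05. The adjusted count was 153 with DESeq2, 4 with robust moderation, 0 to 93 with 1 library left out (93 without DHEA library 3, 12 without DHEA library 4), 1 without DHEA libraries 1 and 2, 12 without DHEA library 2 and sesame oil library 4, 38 without replicate 4 of each label, and 4 with the later accessions as a term. Of the members, 0 had an unadjusted p under 0.05 in the reported test. This became 1 with robust moderation and 1 after thinning to the smallest total (Crhr2 in both), 0 to 1 with 1 library left out (Crhr1 without DHEA library 3 or 4 or sesame oil library 2, Crhr2 without DHEA library 2, Crhbp without sesame oil library 4), 2 without DHEA libraries 1 and 2, and 2 without DHEA library 2 and sesame oil library 4 (Crhbp and Crhr2 in both), and 1 without replicate 4 of each label (Crhr1). Over all genes, the count at that threshold was 2589, 2516, 1786 to 3667 (3667 without DHEA library 3), 2135, 1824 and 2779 under the same alternatives in turn. No member had an adjusted p under 0.05 under any of the alternatives that gave one; DESeq2 gave none for Crh and Ucn, and Ucn was not tested with at least 10 counts or filterByExpr. With 1 library left out, the log2 fold change of Crh ran from -0.33 to 0.17, of Crhr1 from -0.56 to -0.21, of Crhr2 from 0.31 to 0.69 and of Crhbp from -0.25 to -0.08. Crh was reversed only without sesame oil library 3 (0.17), and Crhr1 only without DHEA libraries 1 and 2 (0.0507). The difference in the log2 Crh to Crhbp ratio ran from -0.0911 to 0.30, reversed without DHEA library 3, sesame oil library 1 or sesame oil library 2, and that in the Crhr1 to Crhr2 ratio from -1.08 (without sesame oil library 2, exact permutation p = 0.0286) to -0.66 with 1 library left out. Of 12 alternatives for the receptor ratio, only that 1 had p under 0.05, and it dropped the sesame oil library that lay among the DHEA libraries. The highest exact permutation p was 0.3, without replicate 4 of each label. The causes of these changes were not tested. No paired analysis was possible because the groups share no library numbers in the labels; the study's methods say that controls of the behavioural tests were littermates, but not which samples share a litter. Depth limits Ucn, Ucn2 and Ucn3.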
